A study of Arabidopsis thaliana with 6 samples.

Results

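The genes described here are the 3 CBF transcription factor genes and 7 cold-regulated (COR) genes of Arabidopsis thaliana, chosen by locus: CBF1 (AT4G25490), CBF2 (AT4G25470), CBF3 (AT4G25480), COR15A (AT2G42540), COR15B (AT2G42530), COR47 (AT1G20440), RD29A (AT5G52310), KIN1 (AT5G15960), KIN2 (AT5G15970) and ERD10 (AT1G20450). All 10 were among the 26402 genes of the deposited table, and all 10 had a mean of at least 1 RPKM (reads scaled to gene length and to depth). Whole leaves of wild-type Columbia plants had been profiled by RNA sequencing in 2 groups of 3 samples, grown at 380 ppm CO2 (normal CO2) or 100 ppm CO2 (low CO2). Plants of both groups came from seeds kept at 4 °C for 2 days, grew at 21 °C and 70% humidity with 16 h of light and 8 h of dark, and were harvested at 4 weeks of age. No cold treatment of the plants is named, and the hour of harvest is not stated in the sources used here. The table gives 1 column per CO2 level, so replicates cannot be compared and the CO2 effect is described without a test.

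CBF proteins are AP2 domain transcription factors that cold induces quickly in Arabidopsis, with a peak that the circadian clock gates to the day. They bind a short DNA element, the C-repeat or dehydration-responsive element (CRT/DRE), in front of COR genes. The COR genes encode hydrophilic proteins, several of them small, that accumulate before freezing tolerance develops. Many of them also respond to drought and to abscisic acid, the stress hormone, through a different element (ABRE), so their transcripts can differ without cold.

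At these growth conditions the COR genes were abundant and the CBF genes were not, and the COR genes did not differ in 1 direction. KIN2, COR15A and COR15B were higher at low CO2, by 2.15-fold to 2.85-fold. RD29A and ERD10 were lower, by 2.30-fold and 2.13-fold, and COR47 was lower by 1.58-fold. CBF3 and CBF1 were lower by 4.30-fold and 2.96-fold, but from 8 and 9 reads at low CO2. On the log2(RPKM + 1) scale, which understates differences of low genes, 3 of the 10 genes were higher by at least 2-fold at low CO2, against 6.07% of all 16563 genes whose mean reached 1 RPKM. On that scale 3 of the 10 were at least 2-fold lower, against 11.1% of all those genes, and 4 lay within 2-fold. Their median log2 difference was -0.45, beside -0.06 for all those genes. With 10 genes these are descriptions only.

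In pairs of values the first is that at normal CO2. Reads behind each value were recovered from the RPKM values, with depths of 25429325 reads at normal and 21887516 at low CO2. Each ratio of low over normal CO2 is followed by its 95% interval, an exact Clopper-Pearson interval of the reads. It covers counting error only and compares these 2 columns, not the conditions. Leaf identity of the columns was checked with markers: 4 mesophyll genes summed to 26550 RPKM at normal and 49280 RPKM at low CO2, and of these RBCS1A and LHCB1.3 were 2.39-fold and 2.12-fold higher while RCA and LHCA1 differed by less than 1.10-fold. The part of leaf make-up in the COR values was not tested. The 3 guard cell genes summed to 74.3 and 98.6 RPKM. Of these, MYB60 had a ratio of 1.66, while KAT1 (1.05) and FAMA (1.10) had intervals that include 1. The phloem marker SUC2 and the epidermis marker ATML1 had ratios of 0.851 and 0.832. Root hair (EXP7 and COBL9) and seed markers (CRA1 and OLEO1) were listed at 0 in both columns, and the flower markers AP1 and AG summed to 1.92 and 0.845 RPKM. In such whole-leaf RNA, fewer cells of a type and less RNA per cell cannot be told apart.

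**Figure D1:**
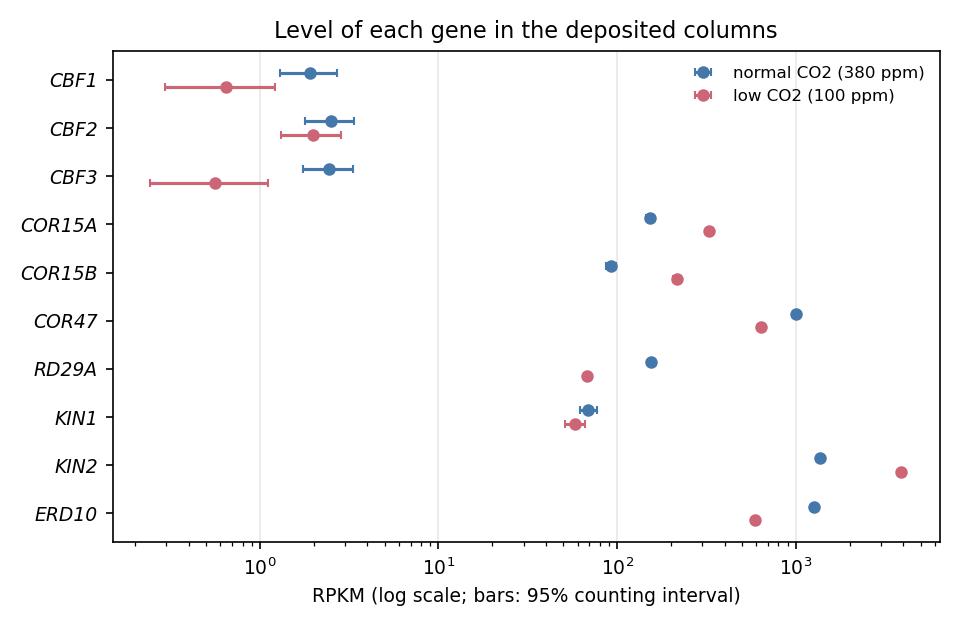
RPKM (log axis) of the 10 genes at normal CO2 (blue) and low CO2 (red), 1 point per deposited column, with bars for the 95% counting interval. The 3 CBF genes lie below 3 RPKM in both columns and the 7 COR genes between 58.1 and 3880.0 RPKM.

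The regulators come first. CBF1 (also DREB1B), CBF2 (DREB1C) and CBF3 (DREB1A) lie side by side on chromosome 4, with no other protein-coding gene between them in the reference. CBF1 was listed at 1.91 RPKM at normal and 0.643 RPKM at low CO2, which are 31 and 9 reads. Its ratio was 0.337 (0.141 to 0.726), which on the log2(RPKM + 1) scale is -0.82 and within 2-fold. CBF3 was listed at 2.43 and 0.564 RPKM, or 40 and 8 reads, a ratio of 0.232 (0.0939 to 0.503). CBF2, which in Arabidopsis has been described as a repressor of the other 2, was listed at 2.49 and 1.97 RPKM, or 41 and 28 reads. The ratio of CBF2, 0.793, had an interval of 0.473 to 1.31 that includes 1, so a difference was not detectable at this depth.

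The 3 CBF genes stood at nearly the same level at normal CO2, where their counting intervals overlapped. At low CO2 CBF2 stood apart, at 3.07 times the level of CBF1 and 3.50 times that of CBF3, with an interval (1.31 to 2.85 RPKM) above those of CBF1 (0.294 to 1.22) and CBF3 (0.244 to 1.11). In the order of all listed genes they fell between ranks 15014 and 15479 at normal CO2 and between 15094 and 16991 at low CO2. Coding sequences of the CBF genes are at most 86.7% identical between copies, with shared stretches of up to 68 bases between CBF1 and CBF2, so reads can be split between them. Summed over the copies there were 112 reads at normal and 45 at low CO2, a ratio of 0.467 (0.323 to 0.665). CBF3 overlaps a long noncoding gene on the opposite strand, AT4G07385, and its reads cannot be told apart from those of that gene where strand was not used.

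Close relatives of the CBF factors were also sparse. Of 5 such genes, 3 reached a mean of 1 RPKM, of which DREB2B was higher and DDF1 lower by at least 2-fold, and DREB2A lay between. Among all counted genes 6.07% were higher and 11.1% lower. DREB2B at normal CO2 and DDF1 at low CO2 were below 1 RPKM, so each reached the mean through its higher column. The list was chosen with earlier results of these data known. DDF1, a gene of the same DREB1 subgroup, was at 9.91 RPKM at normal and 0.510 RPKM at low CO2, lower by 19.4-fold (9.21 to 49.1), and at normal CO2 exceeded each CBF gene. DREB2B, of the drought-linked DREB2 subgroup, was at 0.516 and 3.09 RPKM, from 13 and 67 reads. CBF4, which drought rather than cold induces, had 8 reads in the normal CO2 column and was listed at 0 in the other. DDF2 had 18 and 2 reads. CBF4 and DDF2, the relatives without the required mean, were named after their values were seen.

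Next come the chloroplast proteins. COR15A and COR15B encode stromal proteins that protect chloroplast membranes during freezing, and lie next to each other on chromosome 2. COR15A was at 153 RPKM at normal and 328 RPKM at low CO2, from 1479 and 2735 reads, with a ratio of 2.15 (2.02 to 2.29). COR15B was at 92.5 and 216 RPKM, from 995 and 1999 reads, a ratio of 2.33 (2.16 to 2.52). Both neighbours were higher at low CO2 and kept similar proportions, with COR15A at 1.65 times COR15B at normal CO2 and 1.52 times at low CO2. Their coding sequences are 75.1% identical and share at most 31 bases in a row. Added up, their reads gave a ratio of 2.22 (2.12 to 2.33). The COR15B gene model overlaps AT2G42520 on the opposite strand, which was at 17.3 and 21.1 RPKM, well below COR15B in both columns.

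KIN1 and KIN2 (also COR6.6), neighbours on chromosome 5, encode very small hydrophilic proteins, first likened to fish antifreeze proteins. KIN2 was at 1359 RPKM at normal and 3880.0 RPKM at low CO2, from 6844 and 16815 reads. Its ratio of 2.85 (2.78 to 2.94) was the highest of the 10 genes, and it ranked 78 of all listed genes at normal and 26 at low CO2. KIN1 was at 69.1 and 58.1 RPKM, from 348 and 252 reads, a ratio of 0.841 (0.713 to 0.992). So KIN2 stood at 19.7 times KIN1 at normal CO2 and 66.7 times at low CO2. Their coding sequences have 201 bases each and are 95.02% identical, with a shared stretch of 58 bases, so single values depend on how reads matching both were assigned. The summed reads of KIN1 and KIN2 gave a ratio of 2.76 (2.68 to 2.83), which is nearly that of KIN2.

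**Figure D2:**
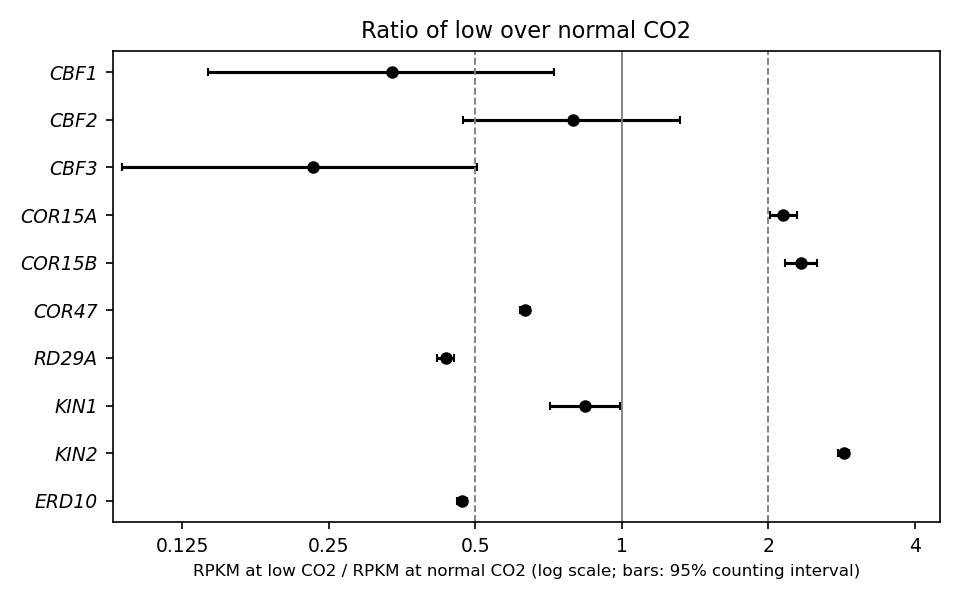
Ratio of RPKM at low CO2 over normal CO2 (log axis) for each gene, with bars for the 95% counting interval, a solid line at 1 and dashed lines at 0.5 and 2. The whole intervals of COR15A, COR15B and KIN2 lie above 2, those of RD29A and ERD10 below 0.5, and that of CBF2 crosses 1.

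Dehydrins are proteins with lysine-rich segments that bind membranes and keep other proteins soluble under water loss, and both dehydrin genes of the set were lower at low CO2. ERD10 and COR47, acidic dehydrin genes next to each other on chromosome 1, ranked 91 and 120 of all listed genes at normal CO2. ERD10 was at 1262 RPKM at normal and 593 RPKM at low CO2, from 25037 and 10120 reads, a ratio of 0.470 (0.459 to 0.481). COR47 was at 1009 and 639 RPKM, from 20402 and 11123 reads, a ratio of 0.633 (0.619 to 0.648). The order of the 2 genes differed between the columns, with ERD10 at 1.25 times COR47 at normal CO2 and 0.927 times at low CO2. Summed reads of the 2 genes gave a ratio of 0.543 (0.534 to 0.552). ERD14, a further acidic dehydrin gene outside the 10, was at 2251 and 574 RPKM, lower by 3.92-fold (3.82 to 4.03), a value singled out after it was seen. Other dehydrin genes outside the 10 did not all go that way. HIRD11 was higher at low CO2, at 3620 and 5145 RPKM, a ratio of 1.42 (1.40 to 1.44). LTI30 had a ratio of 0.906 (0.810 to 1.01), and RAB18, given below, was lower.

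RD29A (also COR78 or LTI78) encodes a hydrophilic protein that cold, drought and salt induce, and its promoter is a standard reporter of these responses. It was at 155 RPKM at normal and 67.6 RPKM at low CO2, from 8422 and 3152 reads, a ratio of 0.435 (0.417 to 0.453). At normal CO2 its counting interval overlapped that of COR15A, whereas at low CO2 it stood at 0.206 times COR15A and overlapped KIN1. RD29B, its neighbour, responds mainly to abscisic acid. It had 24 reads at normal and 3 at low CO2, 6.89-fold lower (2.09 to 35.7), and did not reach a mean of 1 RPKM.

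The COR genes as a group differed in make-up between the columns. The 7 genes held 63527 reads at normal and 46196 at low CO2, which at the 2 depths is a ratio of 0.845 (0.835 to 0.855). In RPKM, which corrects for length, their sum was 4100.5 at normal and 5782 at low CO2, so the direction of the sum depends on the scale. KIN2 took 33.1% of this sum at normal and 67.1% at low CO2. ERD10 took 30.8% and 10.3%, and COR47 24.6% and 11.1%. COR15A and COR15B took 3.72% and 2.26% at normal CO2, and 5.67% and 3.73% at low CO2. RD29A (3.79% and 1.17%) and KIN1 (1.69% and 1.01%) made up the rest. The higher genes KIN2, COR15A and COR15B have coding sequences of 201 to 426 bases, and the lower genes ERD10, COR47 and RD29A have longer ones, whereas KIN1 is as short as KIN2. Of 1767 counted genes with under 450 coding bases, 9.68% were higher and 13.0% lower by at least 2-fold, beside 5.67% and 10.9% of 14328 longer genes. The limit of 450 bases was set with the values known, and the part of length in them was not tested.

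**Figure D3:**
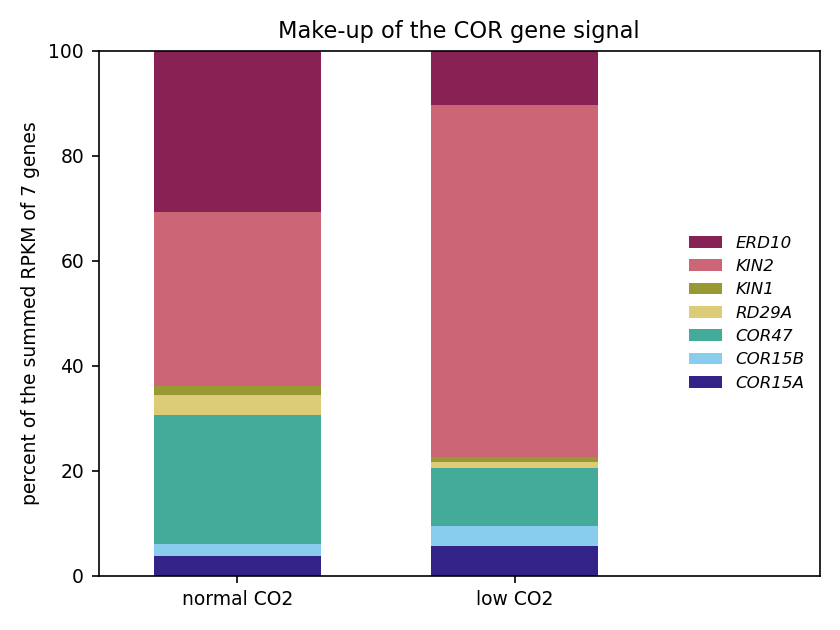
Percent of the summed RPKM of the 7 COR genes that each gene took at normal CO2 and at low CO2, as stacked bars. KIN2 takes 33.1% at normal CO2 and 67.1% at low CO2, while ERD10 and COR47 take smaller shares at low CO2.

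The CRT/DRE sites of the COR genes are shown because they are the element CBF proteins bind, and genes that carry it here went both ways. The letters ACCGAC or GCCGAC were searched on both strands of the 500 bases before the coding start, in the RefSeq assembly TAIR10.1. The deposited table holds no coordinates and names no build, so these positions are those of the reference. All 7 COR genes had a match and none of the 3 CBF genes had, beside 12.9% of 25792 listed genes. The window was set after motif positions had been seen, so these counts are descriptions only. Each site is given below in 30 bases, 5′ to 3′ on the strand of its gene, with the matches in capitals.
COR15A, distal site, chr2:17712393-17712422, minus strand: attaacttgttgGCCGACatacatttgttt
COR15A, proximal site, chr2:17712216-17712245, minus strand: cacaatttcatgGCCGACctgctttttttt
COR15B, chr2:17710122-17710151, minus strand: cacaacttgatgGCCGACctcttttttctt
KIN1, chr5:5209801-5209830, plus strand: cgataaatagctACCGACataaggcaaaac
KIN2, chr5:5211768-5211797, plus strand: caataaaaagctACCGACataaggcaaaaa
ERD10, chr1:7089365-7089394, minus strand: attcatccACCGACCGACCGACgtaaaaga
COR47, chr1:7085916-7085945, minus strand: tgatattcatctACCGACttcaagaaataa
RD29A, site 1, chr5:21240564-21240593, plus strand: caatagacatggACCGACtactaataatag
RD29A, site 2, chr5:21240614-21240643, plus strand: aataaatatcatACCGACatcagtttgaaa
RD29A, site 3, chr5:21240671-21240700, plus strand: aaaagatatactACCGACatgagttccaaa
RD29A, site 4, chr5:21240708-21240737, plus strand: aaaaaagatcaaGCCGACacagacacgcgt

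RD29A, which was lower at low CO2, had 4 matches, and ERD10, also lower, had 3 that overlap each other in a run. The higher genes had 2 (COR15A), 1 (COR15B) and 1 (KIN2). The sites of KIN1 and KIN2, 179 and 186 bases before the coding start, share 27 of their 30 letters position by position, while their ratios were 0.841 and 2.85. The proximal site of COR15A (303 bases before the coding start) and the site of COR15B (266) share 25 of 30. ERD10 and COR47 carry theirs 279 and 269 bases before the coding start. In the reference the distal site of COR15A and the first 3 sites of RD29A lie before the annotated transcript start. The other sites lie in annotated 5′ UTR exons, that of COR15A in 2 of 4 transcript models. Over all counted genes, a match went with little: of 2379 with one, 6.35% were higher and 10.2% lower by at least 2-fold, beside 6.04% and 11.3% of 14091 without.

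The ABRE core (ACGTG, both strands) was found before 6 of the 7 COR genes, all but ERD10, and before all 3 CBF genes, beside 34.5% of all genes searched. A CACGTG, the G-box, counts as a pair of ABRE matches. KIN2 had the most ABRE matches with 7, followed by KIN1 and COR15A with 5 each, COR15B with 3, and RD29A and COR47 with 1 each. The core of the evening element (AATATCT), a motif of clock-regulated genes, was found before 5 COR genes and 2 CBF genes, beside 16.9% of all genes. ACGCG or CCGCG, letters that CAMTA calcium-linked factors bind, were found before RD29A, COR47, ERD10 and CBF2, beside 17.1% of all genes. The COR genes with these letters are the ones with ratios from 0.435 to 0.633, a pattern noticed after the values were seen. Over all counted genes these letters went with little. Of 3162 with them, 5.09% were higher and 12.0% lower by at least 2-fold, beside 6.32% and 10.9% of 13308 without. The window was the same one, set after motif positions had been seen, and a match is a description of these letters only.

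**Figure D4:**
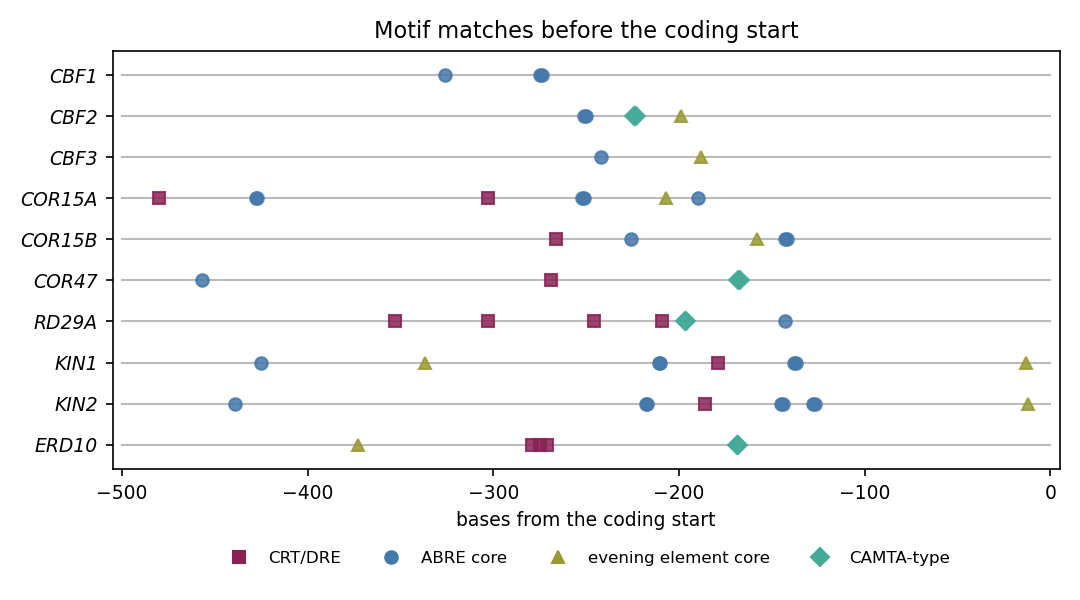
Positions of motif matches on either strand in the 500 bases before the coding start of each gene, with distance from the coding start on the x axis. CRT/DRE matches (squares) lie before all 7 COR genes and before none of the CBF genes.

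Genes that act upstream of the CBF genes gave counts near the shares over all counted genes, which are 6.07% higher and 11.1% lower by at least 2-fold. Of 25 upstream genes 24 were in the table and counted, MPK3 was not analysed here, and the differences reached 2-fold upwards in 1, downwards in 3 and not in 20, and the list's median was -0.21. ICE1, the bHLH factor that activates CBF3 in the cold, was at 28.4 and 29.8 RPKM, which is a ratio of 1.05 (0.960 to 1.14). CAMTA3, an activator of CBF2, was at 75.3 and 51.5 RPKM, which is a ratio of 0.684 (0.656 to 0.713). ICE1 and CAMTA3 were named after their values were seen.

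The upstream genes past 2-fold have all been described as repressors of CBF genes, a trait noticed after the values were seen. So have others of the list that lay within 2-fold, among them EIN3 (ratio 0.746), PIF3 (0.714), PIF7 (1.40) and SOC1 (1.74). MYB15, a repressor that binds CBF promoters, was at 20.5 RPKM at normal and 0.134 RPKM at low CO2, from 357 and 2 reads, a ratio of 0.00651 (0.000785 to 0.0237). PIF4, a phytochrome-interacting bHLH factor, was at 113 and 18.1 RPKM, lower by 6.25-fold (5.70 to 6.87). The clock repressors PRR9 and PRR5 went opposite ways, PRR9 from 6.58 to 0.781 RPKM and PRR5 from 1.297 to 48.0 RPKM. No interval could be given for PRR5, whose reads were not recovered. Other clock genes, named after their values were seen, were closer: PRR7 at 96.6 and 67.6 RPKM, CCA1 at 152 and 216 RPKM and LHY at 199 and 175 RPKM. These clock values went both ways. The hour of harvest is not stated, and any part of the clock in the CBF and COR values was not tested.

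**Figure D5:**
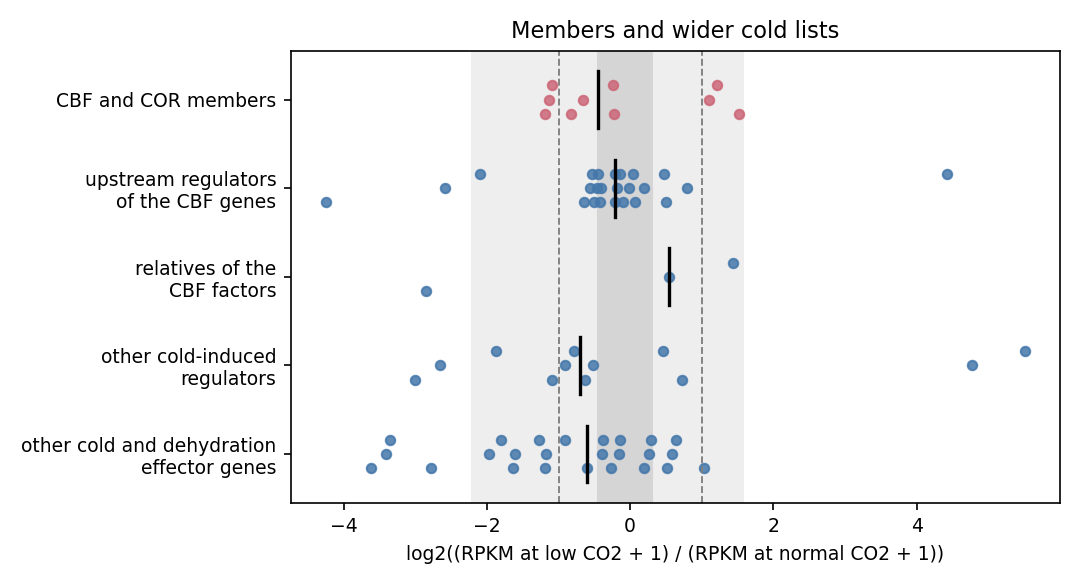
Difference of log2(RPKM + 1), low minus normal CO2, of the 10 genes (red) and of 4 wider cold lists (blue), 1 point per counted gene, with list medians as black bars and 2-fold as dashed lines. Dark and light grey bands hold the central 50% and 95% of all counted genes. The 10 genes lie between -1.19 and 1.51, all inside the light band, whereas each wider list has genes outside it.

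Of 12 counted genes for other regulators that cold induces, 4 were lower and 2 higher by at least 2-fold, and 6 lay between. Among all counted genes 11.1% were lower and 6.07% higher, so lower genes outnumber higher ones there too. The median of the list was -0.70, and the list was chosen with earlier results of these data known. ERF5, an ethylene response factor, was at 17.5 and 1.93 RPKM, lower by 9.06-fold (6.49 to 13.0). DEAR1, a DREB-type repressor, was at 119 and 14.03 RPKM, lower by 8.50-fold (7.14 to 10.2). COR27 and COR28, which link cold to the clock and had 0 CRT/DRE matches each, went the other way. COR27 was at 0.480 and 39.4 RPKM and COR28 (AT4G33980) at 0.241 and 55.5 RPKM, from 9 and 4 reads at normal CO2.

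Of 25 counted cold and dehydration effector genes outside the 10, 11 were lower and 1 higher by at least 2-fold, and 13 lay between, beside 11.1% lower and 6.07% higher of all counted genes. The median was -0.60. This list too was chosen with earlier results of these data known, so its counts are descriptions only. LEA4-5, a late embryogenesis abundant protein gene, was at 16.0 and 0.386 RPKM, lower by 41.5-fold (16.0 to 154) and with 4 reads left in the low CO2 column. RAB18, a dehydrin gene that abscisic acid induces, was at 90.6 and 7.61 RPKM, lower by 11.9-fold (9.63 to 14.8). ELIP1, an early light-induced protein gene, was 10.3-fold lower (9.81 to 10.7) and RD26, a NAC factor gene of the dehydration response, 7.25-fold lower (6.44 to 8.18). RCI2A, a small membrane protein gene, was the higher gene, at 50.01 and 103 RPKM, with a ratio of 2.06 (1.73 to 2.45). COR413-PM1 (174 and 156 RPKM), COR413IM1 (450 and 374 RPKM) and LTI30 (48.5 and 43.95 RPKM), cold-regulated genes that like RCI2A were singled out from their values, differed by less than 2-fold. The interval of RCI2A overlapped those of COR15A and COR15B and lay below that of KIN2. The ratios of RD29A and ERD10 were between the list's extremes.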

How the data were processed

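The authors deposited RPKM values in 1 column per CO2 level. The labels give 3 samples per level, and whether a column pools them or holds 1 of them is not stated. FastQC, TopHat and Cufflinks were used, per the submitters' processing notes. Versions, genome build, annotation and use of strand are not given in the sources used here. Each column was used as the authors' value, with no SD and no n. Reads were recovered as RPKM × depth × (coding length less the 3 bases of the stop codon), searching for the depth that gives whole numbers. Of 21010 genes above 0, 20247 (96.4%) were whole in both columns within 0.0001 reads, all 10 members among them. The recovery was tested on data simulated with the same formula and coding lengths, which checks the search and not how the columns were made.

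Differences are log2((low + 1)/(normal + 1)). Genes whose mean reached 1 RPKM were counted, and a difference of 2-fold was the size used to sort them. Plain ratios carry exact intervals at 95% confidence (binomial for ratios, Poisson for levels). Coding lengths, names, identities (global alignment, Biopython 1.88) and upstream sequence came from the RefSeq annotation of TAIR10.1. The 4 wider lists hold 73 entries, 70 of them in the table. The members and lists were chosen with earlier results of these data known. In each wider list, up to 4 genes with the largest log2 differences past 2-fold were named. The 500-base window was set after motif positions had been seen. Python 3.11.15, NumPy 2.4.6 and SciPy 1.17.1 were used.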

Additional observations from a re-analysis of the deposited data

How the results depend on the processing

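No paired analysis was possible because the table holds no column of a single replicate, and for the same reason leaving out each replicate was not run. Under 7 alternatives (pseudocounts of 0.1 and 5, no filter, a mean of at least 5 RPKM, median scaling, quantile normalization and scaling without the 100 most abundant genes) none of the 10 genes changed direction where it had a value (the 3 CBF genes have none with a mean of at least 5 RPKM), and 3 were at least 2-fold higher each time. The count of lower genes was 4 with a pseudocount of 0.1, where CBF1 stood at -1.43, and 2 with a pseudocount of 5 (CBF3 at -0.42), after quantile normalization (CBF3 at -0.97) and without genes under a mean of 5 RPKM. KIN2 stood at 1.18 after quantile normalization, which moved the median of all counted genes from -0.06 to 0.05. That normalization moved the upstream regulators' median to -0.13. The median of the CBF relatives, 0.54 from 3 genes, turned to -0.55 without a filter and -2.85 with a mean of at least 5 RPKM, because other genes were counted. With a pseudocount of 5, 0 CBF relatives (DREB2B at 0.55) and 0 other effector genes were at least 2-fold higher. With a mean of at least 5 RPKM 0 CBF relatives were. The mean of the single KIN1 and KIN2 ratios was 1.85, beside 2.76 for their summed reads. On 1 kb, 3 reads are worth 0.118 RPKM (normal CO2) or 0.137 RPKM (low CO2), and the CBF values rest on 8 to 41 reads.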

Other observations

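Among all counted genes the motif searches gave values that differ more for the ABRE core, the G-box and the evening element than for CRT/DRE. Of 5666 genes with an ABRE core in the 500 bases before the coding start, 15.1% were at least 2-fold lower at low CO2, beside 9.03% of 10804 without. The G-box went with 16.8% lower of 1716 genes, beside 10.5% of 14754. Of 2670 genes with the evening element core, 9.59% were at least 2-fold higher, beside 5.41% of 13800 without. COR27 held 4 matches of that core and COR28 held 2. The core was also found before CBF3, ERD10 and KIN1, whose values were lower at low CO2, and before CBF2, whose interval includes a ratio of 1. COR15A, COR15B and KIN2, which were higher, held it as well. These motifs share letters and base composition with each other and with their surroundings, which were not taken into account, and no test was made.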
